A study of Homo sapiens with 12 samples.

Results

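Knockdown of LARP4A and knockdown of LARP4B were compared directly in PC3, a human prostate carcinoma line. The members are the 4 PC3 libraries given siLARP4A (2 libraries) or siLARP4B (2 libraries), of 12 libraries in the series, and no control library enters the contrast. The PC3 cells were labelled wild type, received siRNA at 10 nM with a lipid reagent, and gave poly(A) RNA after 72 h. The other 8 libraries are PC3 with a non-targeting siRNA (siControl, 2 libraries) and the osteosarcoma line MG63 with siControl, siLARP4A or siLARP4B at the same dose and time (2 libraries each). The sequences of the siRNAs and the number used per target are not given in the sources used here, so effects of 1 siRNA sequence and of its target cannot be told apart. The design text calls the 2 libraries of a group biological replicates and says no more of their origin.

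LARP4A, listed under its gene symbol LARP4, and LARP4B are related cytoplasmic RNA-binding proteins of the La-related family. Both bind the cytoplasmic poly(A)-binding protein and are known to act on the stability and translation of messenger RNAs. LARP4A binds poly(A) and protects poly(A) tails, whereas LARP4B has been linked to AU-rich sequences of messenger RNAs. A direct contrast asks which transcripts separate the loss of one protein from the loss of the other.

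Library totals were 16950119 to 24864977 fragments in PC3 and 17473390 to 19595860 in MG63. Between the replicates of a group, Pearson's r of log2 scaled counts over genes was 0.9924 to 0.994. Chi-square per degree of freedom between replicates, near 1 for counting error alone, was 6.547 for PC3 siLARP4A and 1.93 for PC3 siLARP4B. The 8 epithelial markers of PC3, among them the keratins KRT8, KRT18 and KRT19, summed to 928 to 1200 FPKM (fragments scaled by model length and by the library's total) in PC3 and 54.9 to 72.8 in MG63. The 11 mesenchymal markers of MG63 summed to 45.3 to 48.9 FPKM in PC3 and at least 2620 in MG63. The 5 blood cell markers summed to 0.0976 to 0.532 FPKM in PC3, with CD3E and HBB at 0.

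The targeted genes were checked first. LARP4 (chromosome 12, 50400885 to 50480004, plus strand, GRCh38) stood at 2.36 and 2.47 FPKM in the PC3 siLARP4A libraries. It stood at 18.8 and 19.0 FPKM with siLARP4B and at 19.0 and 19.4 with siControl. LARP4 was thus low in both libraries that should lack it and close to siControl in the others. Its log2 fold change, siLARP4A over siLARP4B, was -2.95 (SE 0.069, edgeR adjusted p 1.5e-13). LARP4B (chromosome 10, 806914 to 931705, minus strand) stood at 6.69 and 6.97 FPKM with siLARP4A, 1.35 and 1.26 with siLARP4B, and 7.02 and 7.18 with siControl. Its log2 fold change was 2.41 (SE 0.0766, edgeR adjusted p 4.3e-12). The remaining RNA was 12.8% of the siLARP4B level for LARP4 and 19.1% of the siLARP4A level for LARP4B.

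The knockdowns were separated by much of the transcriptome. Of 16066 genes tested, 8303 (51.7%) differed at an edgeR adjusted p under 0.05, 4074 (25.4%) higher with siLARP4A and 4229 (26.3%) lower. The median log2 fold change over all genes was -0.01. The counts of any gene group below are to be read against these shares, since a group called in 1 direction at about these shares does not stand apart. All tests are two-sided, fold changes are siLARP4A over siLARP4B on the log2 scale, and levels are FPKM of replicate 1 and then replicate 2.

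Beyond the targets, the genes lowest with siLARP4A were a mix of secreted, membrane and transcription factor genes. SPDEF, an ETS transcription factor of prostate and secretory epithelium, had 10.0 and 11 FPKM with siLARP4A, 47.0 and 46.4 with siLARP4B and 43.4 and 42.4 with siControl. Its fold change was -2.13 (SE 0.0663, edgeR adjusted p 3.6e-12). TFF2, a secreted trefoil peptide of mucosal surfaces, followed the same order with 15.4 and 17.3 FPKM against 65.6 and 68.7, and 54.2 and 54.3 with siControl. Both were low with siLARP4A. With siLARP4B, SPDEF was near its siControl level, and TFF2 was somewhat above it (0.30 against siControl, edgeR adjusted p 0.013). FGFRL1, a fibroblast growth factor receptor without a kinase domain, behaved like SPDEF at 10.9 and 11.2 FPKM against 44.8 and 45.0. PEG10, an imprinted gene derived from a retrotransposon, had 24.7 and 20.7 FPKM against 111 and 109, with 82.3 and 79.6 in siControl. The tetraspanin gene TSPAN1 had 4.72 and 5.41 FPKM against 21.2 and 23.3, with 15.4 and 17.2 in siControl. SH3BGRL2 had 1.60 and 1.97 FPKM against 8.14 and 8.55, with 5.32 and 5.06 in siControl. PEG10, TSPAN1 and SH3BGRL2 thus lay below siControl with siLARP4A and above it with siLARP4B. STMN3, which encodes a microtubule-destabilising stathmin, separated mostly by a rise with siLARP4B. It had 9.51 and 10.9 FPKM with siLARP4A, close to 12.5 and 12 with siControl, and 52.2 and 46.6 with siLARP4B.

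BST2 (tetherin) and IFITM1, both antiviral membrane proteins induced by interferon, completed the 10 lowest genes. BST2 had 2.53 and 1.00 FPKM with siLARP4A, 8.91 and 9.19 with siLARP4B, and 4.67 and 3.41 with siControl. IFITM1 had 1.26 and 0.474 FPKM against 3.98 and 6.09, and 4.42 and 2.12 with siControl. The groups did not overlap for either gene, but the siLARP4A libraries differed from each other by more than 2-fold and rest on 63 and 19 fragments of BST2 and 21 and 6 of IFITM1. The fold change of BST2 was -2.26 (SE 0.217, edgeR adjusted p 3.5e-07) and ran from -3.15 without siLARP4A replicate 1 to -1.81 without siLARP4A replicate 2. That of IFITM1 was -2.40 (SE 0.365, edgeR adjusted p 4.6e-05), with -3.34 and -1.95 for the same omissions.

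For each of the genes highest with siLARP4A, both siLARP4B libraries lay below both siControl libraries. POGLUT3, a glucosyltransferase of the endoplasmic reticulum, had 13.5 and 11.5 FPKM with siLARP4A, 1.36 and 1.68 with siLARP4B, and 11.7 and 12.2 with siControl. Its fold change was 3.07 (SE 0.104, edgeR adjusted p 5.6e-12). GNB4, a G protein beta subunit, had 6.15 and 5.28 FPKM against 0.752 and 1.05, below its 8.06 and 8.02 with siControl in both knockdowns. DPYSL3, a cytoskeletal protein of the collapsin response mediator family, had 36.9 and 33.9 against 5.31 and 5.46. ASPH, an aspartate hydroxylase, was the most abundant of the 10, with 398 and 390 FPKM against 64.4 and 63.4, and 232 and 230 with siControl. Its fold change of 2.65 had the smallest standard error of these genes (0.0385, edgeR adjusted p 3.4e-16). The kinase gene HIPK3, CCDC117 and the basement membrane collagen gene COL4A1 also stood 4.89 to 7.63 times higher with siLARP4A.

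TLNRD1 and TNFRSF1B were separated from both sides of siControl, as were ASPH, COL4A1, DPYSL3, HIPK3 and CCDC117 among the 10 highest genes. Against siControl, TLNRD1 changed by 1.48 with siLARP4A and -1.51 with siLARP4B, and TNFRSF1B by 1.85 and -0.54. These comparisons share their control libraries. TLNRD1, which encodes an actin-bundling protein with a talin rod domain, had 12.2 and 13.7 FPKM with siLARP4A, 5.02 and 4.36 with siControl, and 1.69 and 1.62 with siLARP4B. Its fold change was 2.98 (SE 0.0981, edgeR adjusted p 5.1e-12). TNFRSF1B, the second receptor of tumour necrosis factor, had 5.00 and 5.48 FPKM with siLARP4A, 1.34 and 1.57 with siControl, and 0.892 and 1.14 with siLARP4B. TNFRSF1B holds the small RNA genes MIR4632 and MIR7846 within its span.

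**Figure D1:**
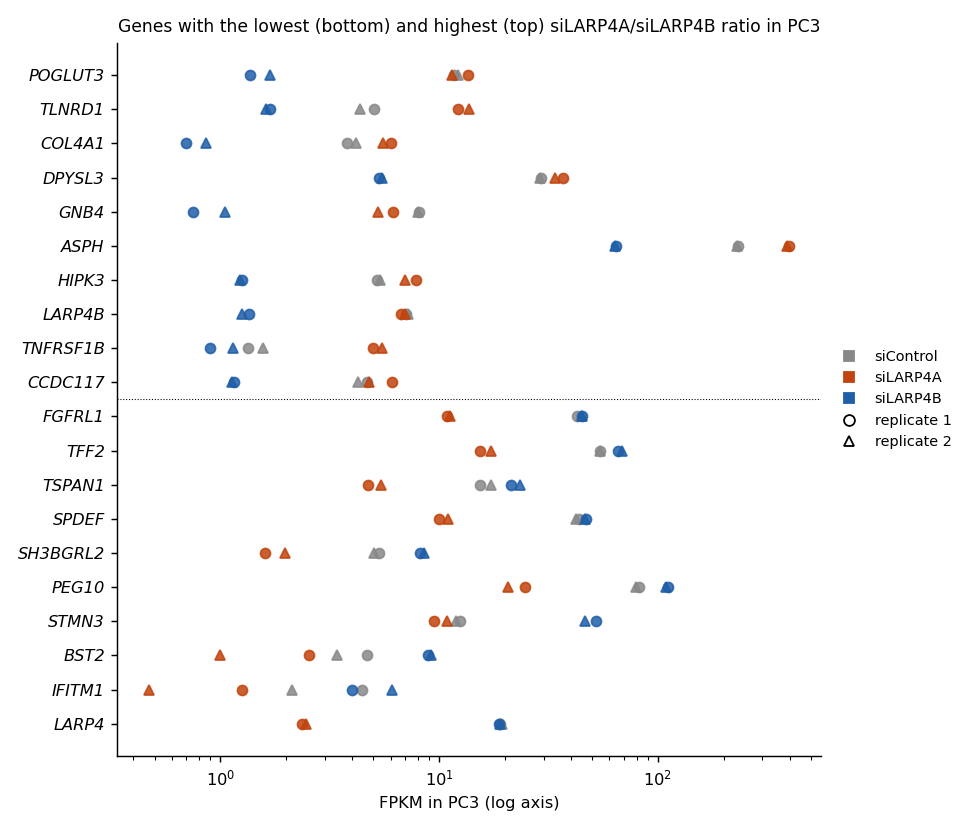
FPKM (log axis) in the 6 PC3 libraries for the 10 genes lowest and the 10 highest with siLARP4A relative to siLARP4B; each mark is 1 library, circles are replicate 1, triangles replicate 2. For SPDEF the siLARP4B libraries (47.0 and 46.4 FPKM) lie beside siControl and the siLARP4A libraries (10.0 and 11) stand apart, while for POGLUT3 the siLARP4B libraries (1.36 and 1.68) stand apart.

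Among the 22 gene lists examined, the list of G2 phase and mitosis had the largest share of members called in 1 direction. All 41 of its genes were higher with siLARP4A, with a median fold change of 1.19, against 25.4% of all genes. Their median level was 20.7 and 19.7 FPKM with siLARP4A and 9.09 and 9.67 with siLARP4B, and 20.1 and 20.6 with siControl. The siLARP4A libraries thus lay at the siControl level and the siLARP4B libraries well below it. Within replicate 1 the median fold change was 1.19 and within replicate 2 it was 1.10. In bulk RNA, fewer cells in a phase of the cycle and less RNA of these genes per cell cannot be told apart.

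CENPF, a kinetochore protein, had 24.3 and 17.9 FPKM with siLARP4A against 7.25 and 7.25 with siLARP4B, a fold change of 1.57 (SE 0.126, edgeR adjusted p 5.3e-08). NCAPG, a condensin subunit, had 12 and 11.6 FPKM against 4.27 and 4.01, a fold change of 1.53 (SE 0.0672, edgeR adjusted p 7.1e-11). NCAPG overlaps LCORL on the other strand. Of members named here for their roles after their values were seen, the proliferation marker MKI67 had 24.0 and 17.5 FPKM against 7.29 and 7.79. PLK1, a kinase of mitotic entry, had 49.0 and 48.9 against 23 and 23, and CCNB1, the mitotic cyclin B1, 51.1 and 49.2 against 28.1 and 26.0. AURKA, another mitotic kinase, was at the lower end of the list, with 27.7 and 28.5 FPKM against 25.4 and 26.1 (fold change 0.15, edgeR adjusted p 0.044). Unlike the list as a whole, AURKA lay below its siControl level of 43.7 and 45.8 FPKM in both knockdowns.

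Many promoters of these genes hold the letters TTTGAA of the cell cycle homology region, an element known to bind repressor complexes outside G2 and mitosis. TTTGAA was found on either strand in 25 of the 35 promoters of the list that RefSeq provided (71.4%), and in 10.0% of 12073 promoters of all genes tested. The promoter windows run from 250 bases before to 50 after the gene start on GRCh38.p14. CCAAT, the CCAAT box, was found in 25 of the 35 (71.4%) and in 36.2% of all. Examples from genes with values above are given on the gene's strand, 5′ to 3′, with TTTGAA in capitals.
MKI67 (chr10:128126435-128126464, minus strand): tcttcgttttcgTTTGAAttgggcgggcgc
PLK1 (chr16:23678848-23678877, plus strand): cccagcgccgcgTTTGAAttcggggaggag
NCAPG (chr4:17810932-17810961, plus strand): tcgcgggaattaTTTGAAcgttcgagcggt

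The list of G1/S transition and DNA replication was nearly as uniform. Of its 51 genes, 48 were higher with siLARP4A and 1 was lower, with a median fold change of 0.87 (0.92 within replicate 1 and 0.90 within replicate 2). Its median level was 12.9 and 13.7 FPKM with siLARP4A, 8.16 and 8.28 with siLARP4B, and 16.2 and 14.7 with siControl. Here the siLARP4A libraries also lay below siControl, but less far. CLSPN, an adaptor of the replication checkpoint, had 5.24 and 4.83 FPKM against 1.66 and 1.44 (fold change 1.72, SE 0.0919, edgeR adjusted p 5.9e-10). MCM10, which acts at the start of replication, had 3.02 and 3.59 FPKM against 1.10 and 0.972 (fold change 1.68, SE 0.109, edgeR adjusted p 4.6e-09). The 6 subunits of the replicative helicase, MCM2 to MCM7, were all higher with siLARP4A, by 0.67 to 1.04.

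UNG, a uracil-DNA glycosylase, was the lone member that was lower with siLARP4A. It had 17.9 and 17.2 FPKM with siLARP4A and 25.1 and 23.3 with siLARP4B (fold change -0.44, SE 0.0637, edgeR adjusted p 2.8e-05), and both lay far under the 51.5 and 54.7 FPKM of siControl. CCNE1, the G1 cyclin E1, had 2.20 and 1.81 FPKM against 2.03 and 1.54 (0.19, edgeR adjusted p 0.48). The repressor gene E2F8 had 1.42 and 1.02 against 0.901 and 0.907 (0.47, edgeR adjusted p 0.055). CCNE1 and E2F8 were the only members of the list that did not pass the threshold, and are named for that reason after their values were seen.

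The promoters of this list carried another element. TTTCGCGC or TTTGGCGC, the letters bound by E2F factors that drive entry into S phase, were found on either strand in 13 of 43 promoters (30.2%) and in 2.04% of all promoters. A match can overlap its own reverse complement, so neighbouring matches are not independent. TTTGAA was found in 1 of the 43 (2.33%), and CCAAT in 25 (58.1%). Helicase genes with 1 match in capitals are shown.
MCM2 (chr3:127598402-127598431, plus strand): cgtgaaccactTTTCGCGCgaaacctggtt
MCM3 (chr6:52284728-52284757, minus strand): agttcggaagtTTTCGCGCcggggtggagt
MCM7 (chr7:100101388-100101417, minus strand): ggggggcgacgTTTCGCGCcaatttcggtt
MCM2 had 24.8 and 24.4 FPKM with siLARP4A against 13.4 and 14.2, MCM3 40.0 and 38.8 against 19.6 and 19.4, and MCM7 107 and 116 against 67.1 and 66.0.

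Genes of homologous recombination and the Fanconi pathway, which repair broken and crosslinked DNA, were also mostly higher with siLARP4A. Of 26 members, 24 were higher with siLARP4A and none lower, with a median fold change of 0.88. Their median level was 5.30 and 5.17 FPKM with siLARP4A, 3.13 and 3.18 with siLARP4B, and 5.16 and 4.83 with siControl. BRCA2, a mediator of homologous recombination, had 1.30 and 1.12 FPKM against 0.288 and 0.410 (fold change 1.83, SE 0.170, edgeR adjusted p 2.4e-07). EXO1, an exonuclease that resects DNA ends, had 9.60 and 9.16 FPKM against 3.09 and 3.27 (1.59, SE 0.0831, edgeR adjusted p 4.9e-10). FANCF (-0.32, edgeR adjusted p 0.078) and FANCL (-0.04, edgeR adjusted p 0.84) did not pass the threshold and are named for that reason.

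Regulators upstream of S phase were more often higher than lower with siLARP4A. Of 14 tested CDK inhibitors, D-type cyclins, their kinases and pocket proteins, 9 were higher (64.3%) and 4 lower (28.6%), with a median of 0.37. Over all genes the shares were 25.4% and 26.3%, so the lower calls lay near that of all genes. With DESeq2 the lower calls were 2. CDK6, a kinase of G1, had 16.6 and 13.8 FPKM with siLARP4A, 5.36 and 6.38 with siLARP4B, and 11.7 and 11.8 with siControl (1.40, SE 0.101, edgeR adjusted p 1.6e-08). The pocket protein gene RBL1 had 5.82 and 5.39 FPKM against 3.31 and 3.29 (0.79, edgeR adjusted p 9e-08). CDKN1B, the inhibitor p27, went the other way, with 16.3 and 16.4 FPKM with siLARP4A and 21.1 and 22.8 with siLARP4B (-0.40, edgeR adjusted p 0.00031). RBL2 had 6.80 and 6.68 FPKM against 7.72 and 8.40 (-0.23, edgeR adjusted p 0.005), a call lost without siLARP4B replicate 2 (-0.17, edgeR adjusted p 0.082). CDKN1A, the inhibitor p21, named after its values were seen, was above its siControl level of 8.56 and 9.02 FPKM in both knockdowns, with 18.0 and 20.4 for siLARP4A and 12.6 and 13.0 for siLARP4B (0.61, edgeR adjusted p 3.7e-05).

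**Figure D2:**
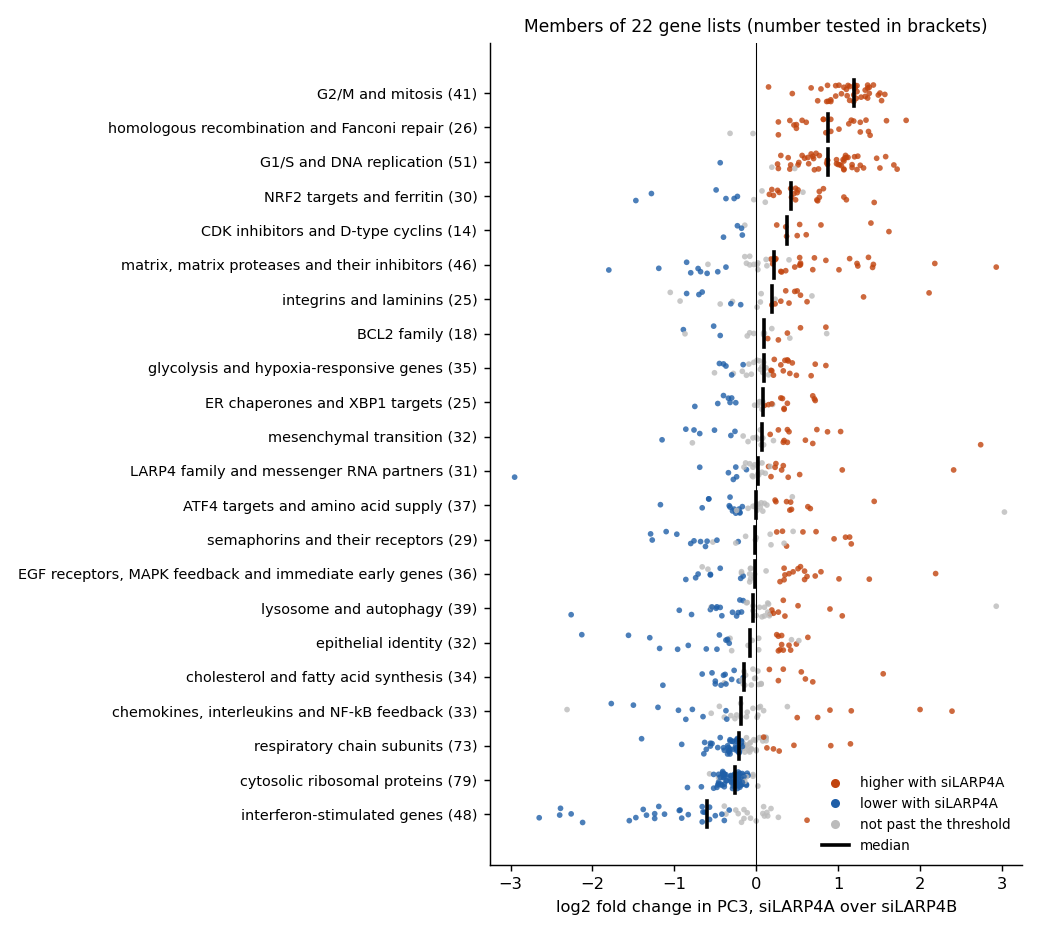
Log2 fold change in PC3 of the tested members of each of 22 gene lists; each point is a gene, coloured by whether it was called higher or lower with siLARP4A, and the bar is the list median. The 3 cell cycle and repair lists at the top have medians of 0.87 to 1.19 and the interferon list at the bottom -0.60; 3 members lie outside the axis.

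Interferon-stimulated genes had the lowest median of the 22 lists. Of 48 tested, 30 were lower with siLARP4A and 1 higher, with a median of -0.60 (-0.50 within replicate 1 and -0.63 within replicate 2; -0.36 with limma on log2(FPKM + 1)). Lower calls among all genes were 26.3%. The members' levels summed to 372 and 363 FPKM with siLARP4A and 601 and 629 with siLARP4B. Against siControl, the median change of the list was -0.26 for siLARP4A and 0.55 for siLARP4B; these 2 comparisons share their control libraries. PSMB9 and TAP1 were not tested, and IFI27 and IRF7 have models at more than 1 locus.

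Beside BST2 and IFITM1, several effectors named after their values were seen lay well below the list's median. ISG15, a ubiquitin-like modifier, had 59.1 and 63.7 FPKM with siLARP4A, 144 and 150 with siLARP4B, and 89.3 and 84.9 with siControl (-1.24, edgeR adjusted p 3.2e-09). IFI6 had 13.6 and 10.8 FPKM against 33.1 and 36.0, and 21.0 and 16.5 with siControl (-1.47, edgeR adjusted p 5e-08). OAS1, which makes the activator of RNase L on sensing double-stranded RNA, had 6.66 and 7.34 FPKM against 16.2 and 19.8 (-1.34, edgeR adjusted p 2.9e-08). For these 3 genes every siLARP4A library lay under siControl and every siLARP4B library above it. Of the transcription factor subunits that relay interferon signals, STAT2 had a fold change of -0.91 (edgeR adjusted p 8.1e-08) and IRF9 of -1.19 (edgeR adjusted p 3e-07). DDX60L was the member called higher, with 3.74 and 2.94 FPKM against 2.13 and 2.33 (0.62, SE 0.125, edgeR adjusted p 0.00067). Of the 48 members, 17 did not pass the threshold, among them OAS3 at 9.96 and 9.23 FPKM against 8.52 and 9.68 (0.10, edgeR adjusted p 0.31) and IFIT5 at 5.54 and 5.33 against 4.96 and 5.42 (0.09, edgeR adjusted p 0.34). XAF1 had no fragment in either siLARP4A library and at most 0.0926 FPKM with siLARP4B, too low for a fold.

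The letters GAAANNGAA, the core of the interferon-stimulated response element, were found on either strand in 23 of the 37 promoters of tested members that RefSeq provided (62.2%), against 6.51% of all promoters. Of these 23 carriers, 13 were called lower with siLARP4A, 1 higher (DDX60L) and 9 in neither direction. Of all 48 tested members, 30 were lower (62.5%), so carriers were not called lower more often than the list as a whole. Examples from genes called lower, and from DDX60L, are shown with the 9 letters in capitals. OAS3 and IFIT5, which did not pass the threshold, also hold the letters and are not shown.
BST2 (chr19:17405742-17405771, minus strand): ctcctttctggGAAACTGAAactgaaaacc
IFITM1 (chr11:314023-314052, plus strand): cacacttctgaGAAACTGAAacgacagggg
ISG15 (chr1:1013379-1013408, plus strand): ctcgggaaaggGAAACCGAAactgaagcca
IFI6 (chr1:27672330-27672359, minus strand): gggagagagggGAAAATGAAactctgcaga
DDX60L (chr4:168480524-168480553, minus strand): ggtggagaaaaGAAACCGAAactaactccc

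**Figure D3:**
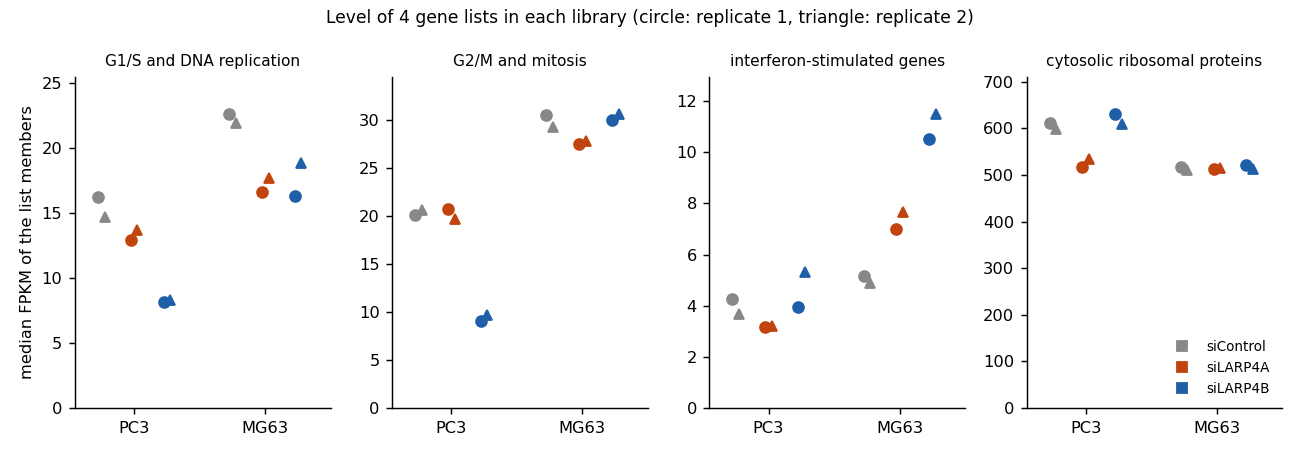
Median FPKM over the members of 4 gene lists in each of the 12 libraries; circles are replicate 1, triangles replicate 2, colours the siRNA. In PC3 the siLARP4B libraries are lowest for both cell cycle lists (8.16 and 8.28 FPKM for G1/S, 9.09 and 9.67 for G2/M); in MG63 the libraries of both siRNAs lie close together on those lists, and for interferon-stimulated genes siLARP4B (10.5 and 11.5) exceeds siLARP4A (6.98 and 7.66). Ribosomal protein genes are lowest with siLARP4A in PC3 (518 and 535).

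Chemokines, interleukins and genes of NF-kB signalling did not move as 1 group. Of 33 tested, 6 were higher and 9 lower, near the shares over all genes, with a median of -0.19 that became -0.08 without siLARP4B replicate 2. The neutrophil chemokine gene CXCL8 had 17.3 and 16.4 FPKM with siLARP4A, 38.7 and 40.0 with siLARP4B, and 28.6 and 25.6 with siControl (-1.20, SE 0.0999, edgeR adjusted p 7.3e-08). CXCL6, which acts on the same receptors, had 1.47 and 2.47 FPKM against 4.99 and 6.18 (-1.50, SE 0.232, edgeR adjusted p 5.2e-05). IL11, a cytokine of the interleukin 6 family, was higher with siLARP4A, at 5.06 and 4.77 FPKM against 2.46 and 1.98 (1.16, SE 0.178, edgeR adjusted p 4.7e-05). NFKBIA, the inhibitor that NF-kB induces against itself, named after its values were seen, had 37.3 and 42.0 FPKM against 40.5 and 38.6 (0.02, edgeR adjusted p 0.81).

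Ribosomal protein genes were lower with siLARP4A by a small amount across nearly the whole list. Of 79 cytosolic ribosomal protein genes, 70 were lower and none higher, with a median of -0.26. Their summed level was 54300 and 56200 FPKM with siLARP4A and 68400 and 67400 with siLARP4B. RPL5, a large subunit protein that hosts small nucleolar RNA genes, had 504 and 522 FPKM against 943 and 920, and 899 and 913 with siControl (-0.84, SE 0.0355, edgeR adjusted p 5.2e-11). RPL13A had 2030 and 2180 FPKM against 3390 and 3410 (-0.67, edgeR adjusted p 5.3e-08). With an offset for model length in each library, 47 were lower, 2 higher and the median was -0.17.

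Nuclear-encoded subunits of the respiratory chain followed in the same direction with exceptions. Of 73 tested, 43 were lower and 7 higher, with a median of -0.21 (-0.09 with the length offset). COX7C, a cytochrome c oxidase subunit, had 256 and 290 FPKM with siLARP4A, 736 and 721 with siLARP4B, and 705 and 675 with siControl (-1.40, SE 0.0582, edgeR adjusted p 4.2e-11). NDUFA7, of complex I, had 68.6 and 71.4 FPKM against 138 and 128 (-0.91, edgeR adjusted p 1.1e-08). Going the other way, the complex I gene NDUFB2 had 155 and 188 FPKM against 94.2 and 90.1, and the ATP synthase gene ATP5F1E 46.2 and 45.9 against 20.8 and 21.4 (fold changes 0.91 and 1.15). NDUFB2 and ATP5F1E were near siControl with siLARP4A and low with siLARP4B, and both overlap genes on the other strand. ATP5F1E also overlaps the readthrough gene SLMO2-ATP5E on its own strand, with which it can share fragments.

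Stress and metabolic lists were mixed in PC3. Of 30 NRF2 target and ferritin genes, which serve defence against oxidants and iron storage, 20 were higher with siLARP4A and 6 lower, with a median of 0.42 (0.24 with limma on log2(FPKM + 1)). TXNRD1, thioredoxin reductase, had 505 and 473 FPKM against 234 and 229 (1.10, SE 0.0371, edgeR adjusted p 5.6e-12). SLC7A11, the cystine transporter, had 16.0 and 13.3 FPKM against 5.42 and 5.60 (1.44, SE 0.0846, edgeR adjusted p 1.7e-09). The best-known target of the list was on the other side: HMOX1, which degrades haem, had 17.9 and 17.7 FPKM with siLARP4A, 49.4 and 50.9 with siLARP4B, and 11.8 and 11.9 with siControl (-1.47, SE 0.0659, edgeR adjusted p 8.9e-11). The drug exporter gene ABCC3 had 10.2 and 11.6 FPKM against 26.6 and 27.2 (-1.28, SE 0.0759, edgeR adjusted p 1.8e-09). TGACNNNGC, the antioxidant element, was in 4 of 23 promoters of the list (17.4%) and in 15.1% of all.

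ATF4 targets, which supply amino acids under stress, gave 9 higher and 14 lower of 37, with a median that rounds to 0. NUPR1, a stress-induced chromatin protein, had 3.94 and 4.05 FPKM against 9.23 and 9.03 (-1.17, edgeR adjusted p 8.5e-08). CHAC1, which degrades glutathione, had 5.34 and 5.34 FPKM against 9.03 and 8.15 (-0.66, edgeR adjusted p 0.00053). VLDLR, a lipoprotein receptor, went the other way, with 1.38 and 1.57 FPKM against 0.923 and 0.967 (0.66, edgeR adjusted p 0.0024). SLC7A11, described above with the NRF2 targets, is counted in this list too and was higher by 1.44 (edgeR adjusted p 1.7e-09). TGATGCAA or TGATGNAAT, the amino acid response element, was in 4 of 32 promoters (12.5%) and in 0.878% of all. Of 25 chaperone and XBP1 target genes of the endoplasmic reticulum, 11 were higher and 7 lower. The chaperone calnexin (CANX) had 58.6 and 52.3 FPKM against 93.5 and 95.6 (-0.75, edgeR adjusted p 4.2e-09), and the stress sensor gene ATF6 10.8 and 10.0 against 6.32 and 6.51 (0.72, edgeR adjusted p 2.6e-07). SEL1L, of the degradation complex in that membrane, was higher by 0.71 and DERL1 lower by 0.47 (edgeR adjusted p 3.3e-07 and 1.1e-06).

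In cholesterol and fatty acid synthesis, 7 of 34 genes were higher and 13 lower, with a median of -0.15. SQLE, squalene epoxidase, had 19.4 and 20.3 FPKM with siLARP4A against 31.2 and 32.6 (-0.66, edgeR adjusted p 1.9e-07), and the sterol reductase gene TM7SF2 4.64 and 4.01 against 8.87 and 10.6 (-1.14, edgeR adjusted p 5.5e-06). STARD4, which carries cholesterol between membranes, had 7.04 and 5.52 FPKM against 2.14 and 2.25 (1.55, edgeR adjusted p 5.8e-08). LBR, a sterol reductase of the nuclear envelope, had 28.2 and 26.4 FPKM against 16.9 and 17.5 (0.69, edgeR adjusted p 2.5e-07). TCACCCCAC, the sterol element, was in 1 of 26 promoters (3.85%) and in 0.331% of all.

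Among glycolytic and hypoxia-responsive genes, 15 of 35 were higher and 5 lower, with a median of 0.09 (0.17 without siLARP4A replicate 2 and 0.15 without siLARP4B replicate 1). PKM, pyruvate kinase, had 1040 and 1090 FPKM with siLARP4A, 666 and 648 with siLARP4B, and 1030 and 997 with siControl (0.72, SE 0.0435, edgeR adjusted p 2.1e-09). PFKM, a phosphofructokinase, went the other way with 41.3 and 47.4 FPKM against 62.2 and 56.7 (-0.40, edgeR adjusted p 6.7e-05). NDRG1 had 212 and 184 FPKM against 117 and 105 (0.85, edgeR adjusted p 0.022), a call lost with DESeq2 (DESeq2 adjusted p 0.099), in both limma runs (limma adjusted p 0.082 and 0.083) and without siLARP4A replicate 1 or either siLARP4B library, at fold changes of 0.75 to 0.93. VEGFA, the vascular growth factor, had 22.2 and 23.6 FPKM against 31.0 and 32.7 (-0.45, edgeR adjusted p 0.0073), lost without siLARP4A replicate 1 (-0.41, edgeR adjusted p 0.051). Of 39 lysosomal and autophagy genes, 9 were higher and 15 lower. The acid glucosidase gene GAA had 25.7 and 29.4 FPKM against 54.2 and 52.8 (-0.94), the proton pump subunit gene ATP6V1A 11.3 and 10.3 against 18.3 and 19.8 (-0.79), and the cathepsin gene CTSZ 121 and 135 against 71.9 and 67.4 (0.90).

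Genes of the matrix and its proteases were more often higher than lower with siLARP4A, with 25 and 9 of 46 and a median of 0.22. COL4A1 had 6.02 and 5.56 FPKM against 0.694 and 0.857, and 3.80 and 4.17 with siControl (2.93, SE 0.0973, edgeR adjusted p 5.3e-12). PLAT, tissue plasminogen activator, had 16.7 and 18.3 FPKM with siLARP4A against 41.2 and 39.8, and 44.7 and 43.4 with siControl (-1.19, SE 0.0628, edgeR adjusted p 5.3e-10). SPARC, a collagen-binding glycoprotein, had 2.98 and 2.63 FPKM against 10.0 and 9.97 (-1.80, SE 0.103, edgeR adjusted p 1.2e-09). SPARC was thus below its siControl level of 5.34 and 4.15 FPKM with siLARP4A and above it with siLARP4B, while PLAT was near siControl with siLARP4B.

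Integrin and laminin genes gave 11 higher and 5 lower of 25, and their median of 0.19 became -0.02 without siLARP4A replicate 1 and 0.07 without siLARP4B replicate 2. ITGA2, the collagen-binding integrin alpha 2, had 23.4 and 20.1 FPKM with siLARP4A, 4.96 and 5.30 with siLARP4B, and 17.6 and 18.5 with siControl (2.11, SE 0.0815, edgeR adjusted p 1.8e-11). ITGA3, a laminin-binding integrin alpha chain, had 81.9 and 82.4 FPKM against 135 and 129 (-0.66, SE 0.042, edgeR adjusted p 3.7e-09). The laminin chain genes were split, with LAMA3 at 16.4 and 14.8 FPKM against 10.2 and 10.4 (0.62) and LAMB2 at 15.9 and 16.9 against 27.2 and 26.9 (-0.70).

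Neither epithelial nor mesenchymal genes moved as 1 group. Of 32 tested epithelial genes, 11 were higher and 12 lower, with a median of -0.08 that ran from -0.25 without siLARP4A replicate 2 to 0.03 without siLARP4A replicate 1 or siLARP4B replicate 2. Beside SPDEF, the ETS factor gene EHF had 0.488 and 0.473 FPKM with siLARP4A, 1.35 and 1.55 with siLARP4B, and 2.64 and 2.25 with siControl (-1.56, SE 0.176, edgeR adjusted p 2e-06). The keratin gene KRT19 had 377 and 401 FPKM against 289 and 273 (0.49, edgeR adjusted p 3.4e-06). Of 32 mesenchymal transition genes, 13 were higher and 7 lower, led by DPYSL3. The myosin light chain gene MYL9 had 1.27 and 1.38 FPKM against 0.712 and 0.593 (1.03, edgeR adjusted p 5.5e-05), and the growth factor gene BMP4 2.59 and 2.64 against 5.54 and 6.27 (-1.15, edgeR adjusted p 1.8e-05). ACTA2, smooth muscle actin, had 0.615 and 0.508 FPKM against 1.39 and 0.669 (-0.86, edgeR adjusted p 0.032), and overlaps FAS on the other strand. The call of ACTA2 was lost in 7 of its alternatives, with the largest move without siLARP4B replicate 1 (-0.21, edgeR adjusted p 0.7).

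Of 36 genes of EGF receptors, their ligands, MAPK feedback and the immediate early response, 16 were higher with siLARP4A and 8 lower. The ligand gene AREG, amphiregulin, had 78.0 and 81.5 FPKM against 45.6 and 48.1, and 70.1 and 69.8 with siControl (0.79, SE 0.065, edgeR adjusted p 2.3e-07). The receptor gene ERBB3 had 1.75 and 1.62 FPKM against 3.09 and 3.14 (-0.86, edgeR adjusted p 3.7e-05). The ETS factor gene ETV1, which MAPK signalling can raise, had 10.6 and 10.1 FPKM against 6.13 and 6.70 (0.72, edgeR adjusted p 2.3e-07). The immediate early gene FOS had 2.47 and 1.93 FPKM against 3.35 and 4.18 (-0.74, edgeR adjusted p 0.006), lost without siLARP4A replicate 2 or siLARP4B replicate 2 (edgeR adjusted p 0.053 and 0.079).

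Among 18 BCL2 family genes, which set the threshold for apoptosis, 5 were higher (27.8%) and 3 lower (16.7%). These shares do not exceed those of all genes (25.4% and 26.3%) by much in either direction. The pore-forming effector gene BAK1 had 27.3 and 29.7 FPKM with siLARP4A, 16.3 and 15.7 with siLARP4B, and 17.6 and 19.5 with siControl (0.85, edgeR adjusted p 1.9e-07). The protective gene BCL2 had 1.71 and 1.54 FPKM against 1.16 and 1.11 (0.54, edgeR adjusted p 0.0026). The death-promoting genes BMF and BAD had 1.36 and 1.24 FPKM against 2.09 and 2.82 (-0.89, edgeR adjusted p 0.00076), and 25.1 and 25.5 against 38.9 and 34.6 (-0.52, edgeR adjusted p 4.2e-05).

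Semaphorins and their receptors, which guide cell movement, gave 9 higher and 11 lower of 29. The secreted semaphorin genes SEMA3F and SEMA3D had 8.69 and 9.88 FPKM against 23.6 and 22.6, and 2.56 and 2.09 against 5.00 and 5.22 (-1.29 and -1.10, edgeR adjusted p 4.3e-10 and 1.2e-07). NRP2, a receptor of class 3 semaphorins, had 8.46 and 8.53 FPKM against 4.06 and 3.78 (1.14, edgeR adjusted p 4.6e-08), and the membrane semaphorin gene SEMA6B 0.927 and 1.43 against 0.486 and 0.565 (1.16, edgeR adjusted p 0.00038). The list of 31 genes of the LARP family and of poly(A) tail metabolism includes the targets LARP4 and LARP4B. Of the 31, 10 were higher (32.3%), LARP4B among them, and 7 lower (22.6%), LARP4 among them. Over all genes the shares were 25.4% and 26.3%. LARP7, which holds the small nuclear RNA 7SK, had 18.2 and 17.4 FPKM with siLARP4A, 8.56 and 8.87 with siLARP4B, and 16.7 and 16.8 with siControl (1.05, SE 0.0677, edgeR adjusted p 4.3e-09). TOB1, an adaptor of deadenylation, had 18.6 and 17.3 FPKM against 30.4 and 28.7, and 29.0 and 30.9 with siControl (-0.69, SE 0.0654, edgeR adjusted p 2.9e-07).

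The same contrast in MG63 shares no library with PC3 and shows where PC3 stands apart. In MG63, 6671 genes (41.5%) differed between the knockdowns, 3272 (20.4%) higher with siLARP4A and 3399 (21.2%) lower. Both lines called 4256 genes, of which 1679 were higher with siLARP4A in PC3 and MG63 alike, 1676 were lower in each, and 901 went opposite ways. Genes called the same way in both lines made up 40.4% of the PC3 calls and 50.3% of the MG63 calls. The difference between lines itself, tested as an interaction, passed for 5647 genes (35.1%), 3078 (19.2%) with a higher value in PC3 and 2569 (16.0%) with a lower one. Of the PC3 calls, 4214 (50.8%) differed between lines.

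The cell cycle separation differed between the lines. The difference passed with a higher value in PC3 for all 41 G2 and mitosis genes, for 49 of 51 G1/S genes and for 20 of 26 repair genes, and with a lower value for none of them. In MG63 the medians of these lists were -0.03, -0.12 and 0.04, with 2 higher and 13 lower of the G2 and mitosis genes, 8 higher and 20 lower of the G1/S genes, and 5 higher and 1 lower of the repair genes. The G1/S list summed to 1980 and 1990 FPKM with siControl in MG63, 1520 and 1580 with siLARP4A and 1480 and 1570 with siLARP4B, so both knockdowns lay below siControl there. The summed level of the G2 and mitosis list in MG63 was 1710 and 1720 FPKM with siLARP4A and 1780 and 1890 with siLARP4B. CDCA2, which regulates a mitotic phosphatase, had 7.81 and 7.56 FPKM against 3.11 and 3.06 in PC3, and 14.3 and 15.5 against 19.2 and 19.6 in MG63 (difference 1.74, SE 0.0957, edgeR adjusted p 8.8e-09). DLEU2, the host transcript of MIR15A and MIR16-1, had 5.70 and 4.65 FPKM against 1.25 and 0.987 in PC3, and 9 and 9.37 against 7.97 and 7.33 in MG63 (difference 1.98, SE 0.221, edgeR adjusted p 6e-06). TNFRSF1B had a difference of 1.93 (SE 0.140, edgeR adjusted p 1.1e-07), with 21.8 and 21.9 FPKM against 16.1 and 15.2 in MG63.

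Interferon-stimulated genes were lower with siLARP4A in MG63 as well, with 40 lower, none higher and a median of -0.83. The difference between lines passed for 25 members, 16 with a higher value in PC3 and 9 with a lower one. BST2 and IFITM1 were among those with a lower value in PC3. At 157 and 162 FPKM against 296 and 283, BST2 was far more abundant in MG63 and separated less (difference -1.38, edgeR adjusted p 0.00042; -2.27 without PC3 siLARP4A replicate 1). The difference of IFITM1 was -1.42 (edgeR adjusted p 0.012), lost without PC3 siLARP4A replicate 2 or siLARP4B replicate 2 (edgeR adjusted p 0.083 and 0.076) and with limma (limma adjusted p 0.058 and 0.14). For ribosomal protein genes, 22 were lower in MG63 against 70 in PC3, and the difference passed with a lower value in PC3 for 48 of 79.

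Other lists separated the siRNAs in MG63 more than in PC3. In MG63, 29 of 37 ATF4 targets were higher with siLARP4A and 1 lower, with a median of 0.55, and the difference passed with a lower value in PC3 for 26 and a higher value for none. For cholesterol and fatty acid synthesis, 25 of 34 genes were lower in MG63 with a median of -0.58, and the difference passed with a higher value in PC3 for 25. NF-kB and chemokine genes had a median of 0.57 in MG63, and CXCL8 was higher with siLARP4A there, at 26.0 and 28.2 FPKM against 15.5 and 20.5 (difference -1.78, edgeR adjusted p 2.7e-07). The potassium channel gene KCNN4 had 21.8 and 25.5 FPKM with siLARP4A against 55.6 and 58.1 in PC3, and 6.17 and 6.64 against 1.90 and 1.95 in MG63 (difference -2.96, SE 0.142, edgeR adjusted p 3.2e-09). ALDH3B1, an aldehyde dehydrogenase, had 3.75 and 4.09 FPKM against 9.10 and 8.12 in PC3, and 13.7 and 14 against 6.10 and 5.64 in MG63 (difference -2.34, edgeR adjusted p 5.1e-09). ADGRG1, an adhesion G protein-coupled receptor, had 8.68 and 8.42 FPKM against 9.66 and 8.99 in PC3 (-0.10, edgeR adjusted p 0.26), and 8.95 and 9.03 against 1.86 and 1.54 in MG63 (difference -2.49, edgeR adjusted p 3.2e-09).

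**Figure D4:**
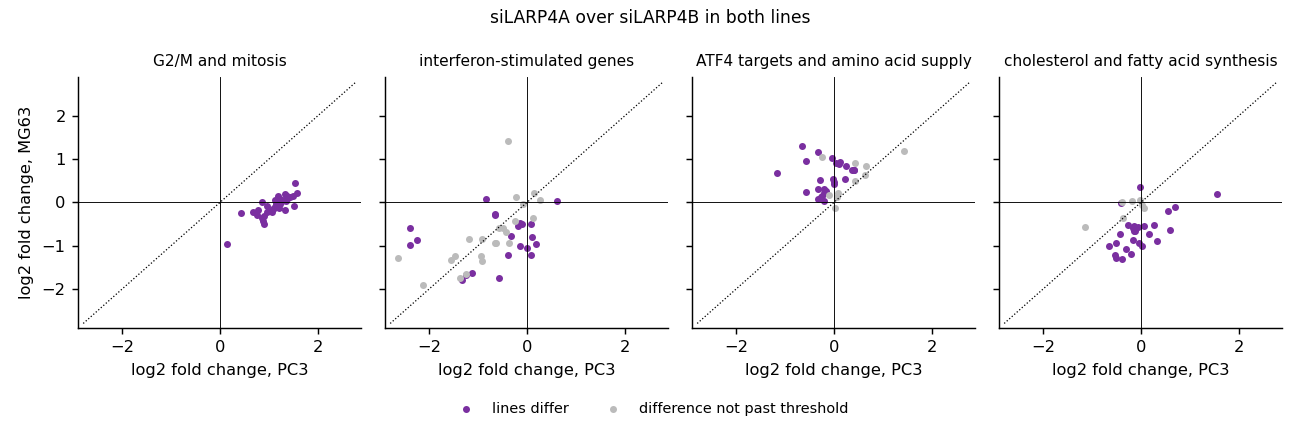
Log2 fold change, siLARP4A over siLARP4B, in PC3 (x axis) and MG63 (y axis) for tested members of 4 gene lists; each point is a gene, purple where the difference between lines passed the threshold, and the dotted line marks equal values. All 41 G2 and mitosis genes lie right of 0 in PC3 and scatter around a median of -0.03 in MG63, and 26 of the 36 ATF4 targets drawn are purple; 4 members outside the axes are left out.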

How the data were processed

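Poly(A) RNA of 12 libraries in 6 groups of 2 was analysed from 1 table per library. Per the file headers, each of 86394 transcript models has a fragment count, a value scaled to the library total (FPM) and an FPKM value; the deposited counts are whole numbers, and the authors' FPKM values are the FPM value divided by model length. Per the submitters' processing notes, FastQC, HISAT2, featureCounts, edgeR and hg38 were used; the handling of strand is not given in the sources used here. A fragment in a shared exon counts in each model, so for each symbol on chromosomes 1 to 22 or X a single model was kept, that of the largest summed fragment count, which left 28163 genes. Of these, 1748 have models at separate loci and are uncertain. Members, gene lists and promoter motifs were chosen with earlier results of these data known, so lists are described by counts and medians and not tested. The PC3 tables of replicate 1 have another layout than the rest, in each of the 3 groups alike.

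Counts were fitted with edgeR 4.0.16 in R 4.3.3 (quasi-likelihood test, TMM, default expression filter, 1 mean per group, all 12 libraries, 16066 genes), with Benjamini-Hochberg adjustment and a threshold of 0.05. The biological coefficient of variation was 5.474%; where nothing shows separate cultures, p-values measure the spread between these libraries. On simulated data, 74 of 100 genes changed by 1 on the log2 scale were recovered, 42 of 100 changed by 0.5, and 15 of 15866 unchanged genes were called. Far fewer genes were changed in the simulation than the 51.7% called in PC3, so these shares need not hold for the real contrast. Named genes are the targets, the 10 highest and 10 lowest fold changes past the threshold with a mean of at least 5 FPKM in either group, groups that do not overlap, 1 locus and no small RNA symbol, the 2 highest and 2 lowest members per list with at least 1 FPKM, and 3 genes per direction for the difference between lines. Other members were named after their values were seen. Alternatives used DESeq2 1.42.0 and limma 3.58.1 on log2(FPKM + 1) and log2(FPKM + 0.1). The sequences and promoters are from RefSeq, GRCh38.p14; of the genes analysed, 27056 were found in its annotation, 98.6% at an overlapping position. Some genes that the rule names are not reported here.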

Additional observations from a re-analysis of the deposited data

Results flagged for a closer look

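Considered here are the genes named for the ends of the PC3 contrast or for the largest differences between lines. For 22 of them, the separation of siLARP4A from siLARP4B differed between PC3 and MG63 by edgeR's interaction test. PEG10, TSPAN1 and TFF2 were the ones that did not pass. This test passed for 35.1% of all genes and for 50.8% of the PC3 calls. The genes named for the largest differences were drawn from those that passed, so their passing was set by the choice. Those at the ends were chosen by their PC3 fold change, which favours a larger value in PC3. Genes named only from the lists are not counted, and some of them also differed, such as MCM10 (1.91) and NUPR1 (-1.86). The values given are PC3 minus MG63 on the log2 scale. Among the genes lowest with siLARP4A in PC3, the difference was -0.56 for LARP4, -1.42 for IFITM1, -1.38 for BST2, -1.43 for STMN3, -1.35 for SH3BGRL2, -3.56 for SPDEF and -0.82 for FGFRL1. In MG63, SPDEF stood at 0.0267 to 0.137 FPKM and SH3BGRL2 at 0.117 to 0.346, so their values there rest on few fragments. Among the genes highest in PC3 it was 1.53 for POGLUT3, 0.77 for TLNRD1, 1.24 for COL4A1, 0.92 for DPYSL3, 1.07 for GNB4, 1.37 for ASPH, 0.58 for HIPK3, 0.65 for LARP4B, 1.93 for TNFRSF1B and 0.85 for CCDC117. LARP4 and LARP4B themselves thus separated the siRNAs more in PC3. The genes named for the largest differences had a mean of at least 5 FPKM in a group of each line. Their differences were -2.96 for KCNN4, -2.49 for ADGRG1, -2.34 for ALDH3B1, 1.98 for DLEU2 and 1.74 for CDCA2. ABCC3, below 5 FPKM in MG63, had a larger difference of -3.36, with fold changes of -1.28 in PC3 and 2.08 in MG63.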

How the results depend on the processing

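The counts of genes that differed in PC3, in MG63 and between lines stayed within 1.5 times the reported count in each alternative run, from 6075 (at least 5 FPKM) to 8492 (symbols at 1 locus) in PC3, where DESeq2 gave 3437 higher and 3280 lower. With 1 PC3 library left out the count was 6819 to 7797 (3409 to 3915 higher, 3410 to 3882 lower), with the lone library assumed to vary like the other groups. With replicate number as a block, PC3 gave 3983 higher and 4159 lower, and the block changed no call of a named gene. Replicate differences of siLARP4A and siLARP4B correlated at 0.009325 over genes. Whether libraries of the same replicate number share a batch is not given in the sources used here and was not tested.

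Some list counts moved by more. With no filter, repair genes lower were 1, CDK inhibitors and cyclins lower 2 and interferon genes higher 2. At 5 FPKM or more, which tests fewer genes, repair genes higher were 14, interferon genes higher 0 and lower 18, chemokines higher 3, EGF and MAPK genes lower 5 and BCL2 genes higher 3. DESeq2 gave 5 EGF and MAPK genes lower. DESeq2, and edgeR on the 4 or 6 PC3 libraries alone, gave 2 CDK inhibitors and cyclins lower. The length offset gave 2 ribosomal genes higher and 8 BCL2 genes higher. limma gave 7 epithelial genes higher and 7 lower with 0.1 added, and 5 BCL2 genes lower with 1 added. With 1 library left out, the ranges were 0 to 1 repair genes lower, 2 to 3 CDK inhibitors and cyclins lower, 1 to 2 interferon genes higher, 4 to 9 respiratory genes higher, 3 to 5 integrins lower, 5 to 7 EGF and MAPK genes lower and 3 to 5 BCL2 genes higher. The cause of these moves was not tested.

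Of 121 results for named genes, 109 kept direction and side of the threshold in each of their 16 to 20 alternatives, 12 crossed the threshold somewhere and 0 reversed. The differences between lines of SH3BGRL2 and HIPK3 were lost without MG63 libraries (edgeR adjusted p 0.26 without siLARP4A replicate 1 for SH3BGRL2, 0.065 without siLARP4B replicate 2 for HIPK3), and that of GNB4 with limma on log2(FPKM + 1) (limma adjusted p 0.06). Those of PEG10, TSPAN1 and TFF2, not past the threshold as reported, passed with limma, and that of PEG10 also in edgeR without PC3 siLARP4A replicate 1 and on thinned counts (edgeR adjusted p 0.032 and 0.041). BST2 and IFITM1 had 19 and 6 fragments in siLARP4A replicate 2. With limma on log2(FPKM + 1), the median moved to -0.06 for chemokines and 0.04 for integrins.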
